A study of Mus musculus with 149 samples.

Results

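Lungs of ovalbumin-sensitized (OVA) and naive BALB/c mice were compared 6 h after both had received buffer alone. The buffer is labelled 0.1% MSA, an abbreviation the labels do not expand. All arrays that carry these labels were taken: 8 from OVA mice and 6 from naive mice, 1 Affymetrix array per animal, 14 arrays beside 135 of other groups of the series. The other groups received buffer, saline or the cytokine TSLP (thymic stromal lymphopoietin) and were sampled at 6 or 24 h. Saline-challenged mice at 6 h (8 naive, 8 OVA) and buffer-challenged mice at 24 h (7 naive, 8 OVA) are used here beside the main groups. No mouse of these groups received TSLP, and no allele or transgene is labelled. The sources used here do not give the sensitization regimen, route, age or sex. The comparison asks how a lung sensitized to ovalbumin differs from a naive one when the challenge holds no TSLP. Levels below are the authors' log2 values from RMA, a method that corrects background, normalizes between arrays and combines probe signals into 1 value. Where 3 levels are given for a group, they are its lowest, median and highest array. A difference is the OVA mean minus the naive mean in log2 units, with its standard error (SE). Its adjusted p comes from limma, a linear model fitted across all genes. The labels name the animals, so replicates are separate mice, and their number limits the precision.

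In mice, sensitization to ovalbumin is used to model allergic airway disease. T helper 2 cells and innate lymphoid cells release interleukins 4, 5 and 13, which act on epithelium through the IL-4 receptor and the factor Stat6. The airway epithelium then forms mucus-producing goblet cells, macrophages take on a chitinase-rich alternatively activated state, eosinophils enter the tissue, and B cells mature into antibody-secreting plasma cells. Whole lung was profiled, so a change in the number of cells of a type cannot be told apart from a change in RNA per cell.

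Some arrays carried transcripts of tissue that lies beside the lung. Krt4 and Krt13, keratins of the squamous lining of the gullet, were more than 2 log2 units above their medians in naive replicates 6 and 4 and OVA replicate 7. Krt4 read 6.49, 6.91 and 13.58 in naive mice and 6.79, 7.32 and 14.05 in OVA mice, and Krt13 read 5.64, 5.88 and 13.53 in naive mice and 5.57, 5.84 and 13.90 in OVA mice. The 3 arrays were far above the other 11. In the whole series 6 arrays carried these keratins, among them naive replicate 8 of buffer at 24 h (Krt13 at 13.91), and in all others Krt13 was at most 6.06. Skeletal muscle genes followed the same arrays, with a mean level of 11.88, 12.63 and 12.67 there against 6.90 to 7.69 in the other 11. Fat genes were high in naive replicate 6 (11.13) and OVA replicate 7 (10.61), against 7.71 to 9.47 elsewhere. OVA replicate 3 stood apart in another way, with the lowest mean level of goblet cell and mucus genes among OVA mice, 8.58 against 9.52 to 10.87. It still lay above the naive range of 7.32 to 8.31. An RNA quality measure also differed: the 3' minus 5' beta-actin difference was 2.57 ± 0.26 (SD, n = 8) in OVA mice and 2.14 ± 0.31 (SD, n = 6) in naive mice. That gap of 0.44 (SE 0.15) gave p = 0.00999 in a two-sided exact permutation test over 3003 assignments (0.02997 adjusted over 3 comparisons). In saline at 6 h and buffer at 24 h the gap was 0.03 in each, with an adjusted exact p of 0.897. The measure itself was lower in buffer at 24 h, with means of 1.28 in OVA and 1.25 in naive mice. No buffer array at 24 h reached the lowest buffer array at 6 h. Results that were lost without the arrays with gullet keratins are named as such below. With the beta-actin difference as a covariate in the limma fit, 23 of the 147 named calls were lost: Adipoq, Apobec2, Apoe, Car4, Ccl17, Csf1r, Csrp3, Egr1, Eng, Flt1, Foxp3, Fxyd3, Gjb5, Il1b, Il4, Il4ra, Klrg1, Mcpt4, Mmp9, Mx1, Nr4a1, Prf1 and Sftpc. With that covariate and without the arrays with gullet keratins, 36 of the 147 were lost. Bpifb1, Fabp1, H2ac19, Icos, Ier3, Napsa, Orm1 and Pdcd1lg2 were lost only when both changes were made together.

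**Figure D1:**
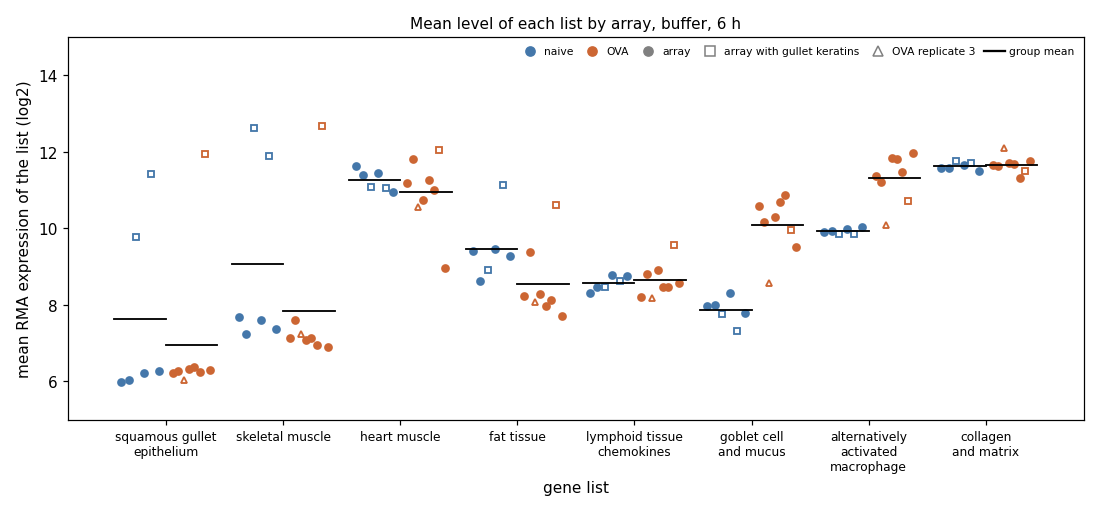
Mean log2 level of the measured members of gene lists in each array (circles), for naive (blue) and OVA (orange) mice in buffer at 6 h, with group means as black lines. Open squares are the 3 arrays with gullet keratins and open triangles are OVA replicate 3; goblet cell genes separate the groups, while squamous and skeletal muscle genes are high only in the squares.

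Of 13494 genes tested, 4536 (33.6%) differed between OVA and naive lungs: 2113 were higher (15.7%) and 2423 lower (18.0%). These shares are the reference for every list count below. Most shifts were small, with a median of 0.32 among the higher and -0.29 among the lower genes. Past 2-fold there were 116 higher and 19 lower genes, so the large changes ran mainly upward. In 626 genes the lowest array of one group lay above the highest of the other. Without the 3 arrays with gullet keratins 4027 genes were called, of which 3270 were among the 4536. With the beta-actin covariate 3208 were called, 2727 of them among the 4536, and against naive saline mice in place of naive buffer mice 4220, of which 2285 were. With the 14 arrays of the 2 groups fitted alone 2338 were called, 2302 of them among the 4536. That fit lost 31 of the 147 named calls: Adipoq, Apobec2, Car3, Car4, Ccl17, Csf1r, Csrp3, Emp2, Enpp3, Flt1, Foxp3, Fxyd3, Gzmb, Il1a, Il1b, Il2ra, Il4ra, Klrg1, Mcpt4, Mmp9, Mx1, Myl3, Pf4, Pim2, Prf1, Scgb1a1, Scnn1b, Sftpc, Sftpd, Tnf and Vnn1. The split of directions moved with scaling: after quantile normalization 2689 were higher and 1868 lower, and the median over all genes went from -0.015 to 0.022. Shifts of this size are not read as changes below.

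The 20 largest rises were Clca1, Chil4, Capn9, Ighm, Retnlb, Gcnt3, Muc5ac, Agr2, Scin, Fcgbp, Ccl8, Cd209e, Fxyd4, Mcpt2, Cldn22, Tff2, Ccna1, Bpifb1, Reg3g and Atp10b. The last, Atp10b, rose by 2.14, and the gene next below it, Alox12e, by 2.12. In 11 of the 20 the groups did not overlap. OVA replicate 3 was the lowest OVA array in 17 of the 20, and naive replicate 5 the highest naive array in 13. All 20 were also called without OVA replicate 3, but leaving it out raises the OVA mean wherever it is the lowest, so this does not test those rises. Without the arrays with gullet keratins 19 were called. The exception was Reg3g, which encodes a secreted antibacterial lectin. It read 8.50, 10.07 and 11.49 in naive mice and 10.29, 12.76 and 13.12 in OVA mice and rose by 2.18 ± 0.78 (adjusted p = 0.0222), but its difference without those arrays was 1.31 (adjusted p = 0.274). Without naive replicate 6 alone the adjusted p was 0.0714, and without naive replicate 4 alone 0.0607.

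Mucus and goblet cell genes made the largest group of rises: 13 of 18 measured members rose, none fell, and their median difference was 1.93, against -0.015 over all genes. Clca1, a secreted protein of goblet cells that acts on mucus and chloride flow, read 4.26, 4.95 and 6.16 in naive mice and 11.56, 13.80 and 14.10 in OVA mice. The groups were more than 5 log2 units apart at their nearest arrays, and the rise was 8.49 ± 0.67 (360-fold, adjusted p = 2.7e-20). Muc5ac, the gel-forming mucin that goblet cells add in allergic airways, read 6.80, 7.51 and 7.94 in naive mice and 8.30, 10.97 and 11.84 in OVA mice. Its ranges did not meet, though OVA replicate 3 came within 0.36 of naive replicate 5. It rose by 3.24 ± 0.36 (9.44-fold, adjusted p = 1.79e-12). Muc5b, the mucin already made in the resting airway, read 10.18, 11.09 and 11.79 in naive mice and 11.42, 12.85 and 13.49 in OVA mice, an overlapping rise of 1.61 ± 0.33 (adjusted p = 5.57e-05).

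The genes that make and fold mucins rose as well. Gcnt3, which branches the sugar chains of mucins, read 4.45, 4.96 and 5.43 in naive mice and 6.56, 8.63 and 9.78 in OVA mice and rose by 3.50 ± 0.36 (11.4-fold, adjusted p = 9.97e-14) with no overlap. Agr2, a disulfide isomerase of the endoplasmic reticulum needed for mucin folding, read 7.58, 8.66 and 9.94 in naive mice and 9.09, 12.07 and 12.78 in OVA mice. Only OVA replicate 3 lay within the naive range, and the rise was 3.09 ± 0.51 (adjusted p = 1.21e-06). Ern2, the stress sensor of mucous epithelia, read 6.56, 6.72 and 7.02 in naive mice and 6.94, 8.38 and 9.37 in OVA mice and rose by 1.61 ± 0.21 (adjusted p = 3.38e-09). The transcription factors of the goblet cell programme moved less: Foxa3 read 6.19, 6.28 and 6.49 in naive mice and 6.27, 7.84 and 8.78 in OVA mice and rose by 1.46 ± 0.22, and Spdef read 7.23, 7.67 and 7.97 in naive mice and 7.14, 8.87 and 9.90 in OVA mice and rose by 1.13 ± 0.23 (adjusted p = 1.09e-07 and 5.64e-05). Both overlapped, with OVA replicate 3 inside the naive range of Foxa3 and below that of Spdef. The remaining measured members did not pass the test: Muc4 (0.44), Creb3l1 (0.14), Galnt6 (0.052), Muc20 (0.041) and St6galnac1 (0.029).

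Further leading rises, of genes for secreted and for cell-bound proteins, were seen in the same arrays. Fcgbp, a mucin-like protein that binds the Fc part of IgG, read 9.48, 9.95 and 10.49 in naive mice and 11.25, 13.18 and 13.61 in OVA mice, with no overlap. Retnlb, a resistin-like protein of goblet cells, read 5.17, 5.71 and 6.11 in naive mice and 6.20, 9.72 and 10.87 in OVA mice. The lowest OVA array, replicate 3, was only just above the naive mice, while 5 of the 8 OVA arrays exceeded 9. Tff2, a trefoil peptide that stabilizes mucus, read 8.50, 9.23 and 9.90 in naive mice and 9.66, 11.75 and 12.24 in OVA mice and rose by 2.28 ± 0.42 (adjusted p = 1.04e-05). Bpifb1, an airway lipid-binding protein, read 9.52, 11.12 and 12.42 in naive mice and 11.89, 13.69 and 13.82 in OVA mice. Its rise of 2.24 ± 0.51 (adjusted p = 0.00028) was 1.57 without the arrays with gullet keratins (adjusted p = 0.0328), and naive replicates 6 and 4 were its lowest arrays. Capn9, a calpain protease of mucous epithelia of the gut, read 4.98, 5.47 and 5.58 in naive mice and 6.19, 9.73 and 10.94 in OVA mice and rose by 4.05 ± 0.38 (16.5-fold, adjusted p = 4.12e-16). Scin, an actin-severing protein, read 5.11, 5.51 and 5.70 in naive mice and 5.54, 8.85 and 10.02 in OVA mice, and all OVA arrays but replicate 3 were clear of the naive range. Cldn22, a tight junction protein, read 6.03, 6.50 and 7.43 in naive mice and 6.97, 9.39 and 9.84 in OVA mice and rose by 2.32 ± 0.32 (adjusted p = 1.59e-08), and Atp10b, a lipid flippase, read 5.94, 6.28 and 6.77 in naive mice and 6.17, 8.75 and 9.79 in OVA mice, in each case with only OVA replicate 3 inside the naive range.

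**Figure D2:**
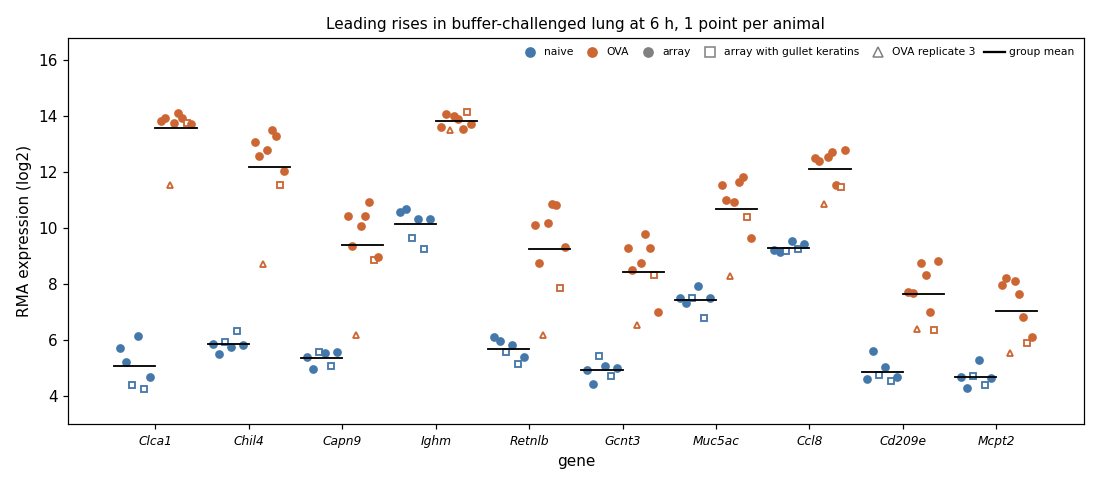
Log2 levels of 10 of the 20 genes that rose most, in each naive (blue) and OVA (orange) array in buffer at 6 h, with group means as black lines. Open squares are arrays with gullet keratins and open triangles OVA replicate 3, which is the lowest or second lowest OVA array for every gene; Clca1 shows the widest gap between the groups.

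Genes of ion and fluid transport moved both ways, 4 of 12 higher and 3 lower, against 15.7% and 18.0% over all genes. Slc26a4 (pendrin), an apical anion exchanger, read 9.57, 10.84 and 12.14 in naive mice and 10.92, 13.32 and 13.64 in OVA mice and rose by 1.96 ± 0.38 (3.9-fold, adjusted p = 2.74e-05). Fxyd4, a regulator of the sodium pump, read 6.40, 7.199 and 7.55 in naive mice and 7.38, 10.47 and 10.99 in OVA mice and rose by 2.71 ± 0.46 (6.56-fold, adjusted p = 2.1e-06), and Slc6a20a, a proline transporter, read 7.64, 8.71 and 9.05 in naive mice and 8.57, 9.91 and 10.91 in OVA mice and rose by 1.32 ± 0.34. OVA replicates 3 and 7 were the lowest OVA arrays of Slc26a4 and Fxyd4 and overlapped the naive mice or came close to them. Of the subunits of the epithelial sodium channel, Scnn1g read 10.55, 10.71 and 10.87 in naive mice and 9.90, 10.21 and 10.48 in OVA mice, without overlap, and fell by 0.53 ± 0.096 (adjusted p = 7e-06), Scnn1b fell by 0.26 ± 0.1 (adjusted p = 0.038, and not called in 7 of 14 fits that left out 1 array or after quantile normalization), and Scnn1a gave -0.058 (adjusted p = 0.566). Aqp5, a water channel of type 1 alveolar cells and glands, fell by 0.29 ± 0.073 (adjusted p = 0.00126), from 12.97, 13.07 and 13.16 to 12.68, 12.76 and 12.89, also without overlap. Cftr, the chloride channel mutated in cystic fibrosis, gave 0.16 ± 0.094 (adjusted p = 0.183). Fxyd3, the last of the 4 that rose (0.41), was not called without the arrays with gullet keratins (adjusted p = 0.113), nor without OVA replicate 7 alone (0.12). Sizes moved with the reference group: against naive saline mice the differences were 2.99 for Slc26a4, -0.33 for Scnn1g and -0.19 for Aqp5.

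Chitinase-like proteins and other genes of alternatively activated macrophages were the next group, with 6 of 10 measured members higher, none lower and a median of 1.05. The other 4, Alox15 and Ccl24 among them, did not pass, with differences from -0.20 to 1.08. Which cells of the lung made these transcripts was not tested. Chil4 (Ym2), a chitinase-like lectin that lacks enzyme activity, read 5.50, 5.84 and 6.32 in naive mice and 8.73, 12.70 and 13.49 in OVA mice. The nearest arrays of the groups were more than 2 log2 units apart, and the rise was 6.33 ± 0.56 (80.6-fold, adjusted p = 1.88e-17). Chil3 (Ym1), its close relative made by macrophages, read 12.17, 12.28 and 12.49 in naive mice and 13.17, 13.98 and 14.08 in OVA mice. The rise of 1.54 ± 0.13 (2.9-fold, adjusted p = 5.38e-18) also left no overlap. The pair are near-copies of each other, so their probes may share signal. Chia1, the active acidic chitinase, read 11.87, 12.24 and 12.50 in naive mice and 11.19, 13.80 and 13.95 in OVA mice and rose by 1.18 ± 0.20 (adjusted p = 2.2e-06), although OVA replicate 3 was below every naive mouse. Mmp12, the macrophage elastase, read 8.38, 8.56 and 9.31 in naive mice and 8.06, 10.91 and 11.93 in OVA mice and rose by 1.88 ± 0.44 (adjusted p = 0.000496). Here OVA replicate 7, the array with gullet keratins, was the lowest of all 14. Pdcd1lg2, which encodes PD-L2, a T cell inhibitory ligand induced by IL-4, read 6.77, 6.93 and 7.15 in naive mice and 7.15, 7.93 and 8.84 in OVA mice and rose by 1.02 ± 0.34 (adjusted p = 0.0132) without overlap. Mrc1, the mannose receptor, rose by 0.38 ± 0.093 (adjusted p = 0.000682). Retnla and Arg1, further genes of this state, had no named probe set and were not analysed here.

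The promoters of 3 of these genes are shown because the neighbours Chil3 and Chil4 both rose, and because Capn9, among the leading rises, holds a spaced palindrome of the kind Stat6 binds. Each line gives the 250 bases before the RefSeq start of GRCm38.p6, 5' to 3' on the gene's strand, with a match to TTCNNNNGAA or TTCNNNGAA in capitals.
Capn9: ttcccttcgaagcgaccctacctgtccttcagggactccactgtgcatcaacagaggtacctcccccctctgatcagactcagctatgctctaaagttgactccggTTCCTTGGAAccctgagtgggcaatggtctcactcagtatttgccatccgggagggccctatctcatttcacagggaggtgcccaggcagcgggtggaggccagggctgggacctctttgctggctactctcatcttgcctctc
Chil4: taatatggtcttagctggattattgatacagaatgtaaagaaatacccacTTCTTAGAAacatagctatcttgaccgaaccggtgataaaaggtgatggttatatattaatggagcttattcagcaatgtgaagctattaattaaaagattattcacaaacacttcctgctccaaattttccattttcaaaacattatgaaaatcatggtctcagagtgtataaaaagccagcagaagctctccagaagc
Chil3: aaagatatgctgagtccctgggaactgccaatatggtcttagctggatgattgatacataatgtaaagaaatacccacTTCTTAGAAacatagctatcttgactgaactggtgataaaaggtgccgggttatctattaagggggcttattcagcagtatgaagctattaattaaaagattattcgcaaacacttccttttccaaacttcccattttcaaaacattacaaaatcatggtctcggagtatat
These are chr8:124575861-124576110 on the plus strand for Capn9, and chr3:106219480-106219729 and chr3:106167565-106167814 on the minus strand for Chil4 and Chil3. The match begins 144 bases before the Capn9 start, 200 before that of Chil4 and 172 before that of Chil3. Shifted by 28 bases, the 300-base windows of the Chil4 and Chil3 starts held the same base at 200 of 272 positions (73.5%), the match included. Over windows from 250 bases before to 50 after the start, TTCNNNNGAA occurred in 6.51% and TTCNNNGAA in 8.37% of the 10794 tested genes with a window. Both motifs read the same on either strand, and a match to one cannot be a match to the other at the same place. Among the 20 leading rises 12 genes had a window, of which Capn9 and Cd209e held the first motif and Chil4 and Bpifb1 the second. A match describes the letters and does not show a bound site.

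Resident macrophage genes did not move as a group. Of 13 genes of alveolar macrophages and lipid handling 2 rose and 3 fell, with a median of -0.00025. Over all genes 15.7% rose and 18.0% fell. Fabp1, a fatty acid-binding protein, read 10.64, 11.01 and 11.24 in naive mice and 9.05, 9.90 and 10.64 in OVA mice and fell by 1.04 ± 0.33 (adjusted p = 0.00946). The groups stopped just short of overlap, at OVA replicate 7 and naive replicate 2. Krt79 rose by 0.86 ± 0.22 and Ctsk, a cysteine protease of macrophages and osteoclasts, by 0.71 ± 0.19, while Mertk, a receptor for apoptotic cells, fell by 0.29 ± 0.081 and Car4, a carbonic anhydrase, by 0.23 ± 0.077. The Car4 call was lost without OVA replicate 3 (-0.13, adjusted p = 0.143) and against naive saline mice (-0.16). Pparg and Marco, which mark alveolar macrophages, gave 0.12 and -0.25 (adjusted p = 0.371 and 0.28). Markers of monocytes and interstitial macrophages leaned upward, 5 of 11 higher and 1 lower. C1qc, a chain of complement C1q, read 10.48, 10.76 and 10.83 in naive mice and 10.88, 11.30 and 11.93 in OVA mice and rose by 0.62 ± 0.16 (adjusted p = 0.00166) without overlap, and C1qb rose by 0.37 ± 0.078. C1qa, the third chain, gave 0.16 ± 0.28 (adjusted p = 0.703). Ms4a7, a membrane protein of macrophages, rose by 0.84 ± 0.21 (adjusted p = 0.000859), and Apoe, an apolipoprotein, fell by 0.65 ± 0.19 (adjusted p = 0.0041). Ccr2, the receptor of inflammatory monocytes, and Csf1r, the receptor for macrophage growth factor, rose by 0.46 ± 0.15 and 0.17 ± 0.058 (adjusted p = 0.0128 and 0.0171), but neither was called without the 3 arrays with gullet keratins (adjusted p = 0.0558 and 0.198). Leaving out naive replicate 4 alone ended the Ccr2 call (adjusted p = 0.0503), and naive replicate 6 alone that of Csf1r (0.0937), which quantile normalization ended too. The Ms4a7, Apoe, Ccr2 and Csf1r calls were lost when naive saline mice served as the reference (differences 0.37, -0.27, 0.30 and 0.019). Among 9 complement and proteinase genes 4 rose, among them Ctss (0.30 ± 0.06; 0.16 against naive saline mice) and Adam8 (0.77 ± 0.20). Mmp9, a gelatinase of neutrophils and macrophages, fell by 0.61 ± 0.21 (adjusted p = 0.0152), a call lost without naive replicate 5 (adjusted p = 0.0559).

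Of the type 2 cytokines, Il13 rose with the groups apart. Of 8 cytokines, receptors and factors of this axis 3 rose and 1 fell. Il13, the cytokine that drives goblet cell change, read 5.67, 5.93 and 6.05 in naive mice and 6.24, 7.32 and 7.99 in OVA mice and rose by 1.31 ± 0.33 (2.48-fold, adjusted p = 0.00103). No OVA array lay inside the naive range, and replicates 3 and 7 were the lowest. Il4, which directs class switching and T helper 2 fate, read 5.51, 5.58 and 5.93 in naive mice and 5.62, 6.09 and 6.62 in OVA mice and rose by 0.47 ± 0.19 (adjusted p = 0.0478), a call lost in 10 of the 14 fits that left out 1 array (adjusted p up to 0.114). Il5, the eosinophil growth factor, read 5.18, 5.30 and 5.49 in naive mice and 5.24, 5.66 and 6.23 in OVA mice and did not pass (0.40 ± 0.28, adjusted p = 0.275). Il13ra2, a decoy receptor that binds IL-13, read 6.03, 6.37 and 6.61 in naive mice and 6.40, 7.41 and 8.21 in OVA mice and rose by 1.06 ± 0.29 (adjusted p = 0.00251). The signalling receptor chain Il4ra went the other way, from 10.86, 11.31 and 11.56 to 10.62, 10.97 and 11.20, a fall of 0.31 ± 0.10 (adjusted p = 0.0171). Its call was lost without naive replicate 3 (adjusted p 0.0505) or 5 (0.0803). Il13ra1 gave 0.21, Stat6 0.10 and Gata3, the T helper 2 factor, -0.27 (adjusted p = 0.0964, 0.116 and 0.0728). Without the 3 arrays with gullet keratins the Il4 call was lost (adjusted p = 0.138), as it was after quantile normalization (adjusted p = 0.0589), and neither Il4 nor Il4ra was called against naive saline mice (0.29 and -0.21).

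Of the epithelial alarmins, the cytokines that start this response, and their receptors, 1 of 6 passed, against 33.6% of all genes. Il17rb, the receptor subunit for IL-25, read 7.28, 7.49 and 7.87 in naive mice and 7.89, 8.33 and 8.98 in OVA mice and rose by 0.88 ± 0.17 (1.84-fold, adjusted p = 2.76e-05) without overlap. Tslp itself read 10.71, 11.02 and 11.22 in naive mice and 10.32, 10.78 and 11.07 in OVA mice, a difference of -0.23 ± 0.12 (adjusted p = 0.14). Its receptor chains Crlf2 and Il7r gave 0.016 ± 0.068 and 0.077 ± 0.15 (adjusted p = 0.877 and 0.729). Il33, which signals tissue damage, read 11.09, 11.55 and 11.81 in naive mice and 11.22, 11.82 and 12.19 in OVA mice and gave 0.31 ± 0.13 (adjusted p = 0.0555), and Il1rap, the shared accessory chain of its receptor, gave -0.21 ± 0.12 (adjusted p = 0.164). The ranges of Tslp and of both parts of its receptor overlapped between sensitized and naive lungs.

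Chemokines for eosinophils and monocytes rose in 3 of 7 cases. Ccl8, which attracts monocytes and, through Ccr8, T helper 2 cells, read 9.16, 9.24 and 9.56 in naive mice and 10.88, 12.46 and 12.78 in OVA mice and rose by 2.81 ± 0.30 (6.99-fold, adjusted p = 5.88e-13), with more than 1 log2 unit between the groups. Ccl11 (eotaxin), a ligand of the eosinophil receptor Ccr3, read 8.00, 8.41 and 8.86 in naive mice and 7.89, 10.005 and 10.73 in OVA mice and rose by 1.24 ± 0.34 (2.35-fold, adjusted p = 0.00266). In OVA replicates 3 and 7 it was within the naive range or below it. Ccl6 rose by 0.30 ± 0.078 (adjusted p = 0.00155). Ccl24, another eotaxin, read 7.81, 8.21 and 8.49 in naive mice and 7.32, 8.48 and 10.63 in OVA mice and gave 0.58 ± 0.39, Ccl9 gave 0.31 ± 0.18, Ccl5 gave -0.28 ± 0.16 and Ccl12 gave -0.22 ± 0.29 (adjusted p = 0.251, 0.168, 0.153 and 0.587). Eosinophil markers varied widely among OVA mice, and none of the 4 measured, of 10 listed, passed. Epx, the eosinophil peroxidase, read 5.59, 5.91 and 6.34 in naive mice and 6.08, 6.48 and 8.02 in OVA mice and gave 0.72 ± 0.34 (adjusted p = 0.0909), with 1 OVA array, replicate 4, more than 1 log2 unit above the rest. Alox15, a lipoxygenase of eosinophils and macrophages, ranged from 6.90 in OVA replicate 3 to 12.57 in replicate 8 and gave 1.08 ± 0.49 (adjusted p = 0.0732). Prg2, the major basic protein, gave 0.43 ± 0.33 and Ccr3 0.13 ± 0.32 (adjusted p = 0.306 and 0.782).

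Among mast cell and basophil markers, 1 of 13 rose and 2 fell, and the list's median was near 0 and changed sign with quantile normalization, among other settings. Mcpt2, a mucosal mast cell protease, read 4.30, 4.68 and 5.28 in naive mice and 5.54, 7.23 and 8.21 in OVA mice and rose by 2.36 ± 0.41 (5.14-fold, adjusted p = 3.91e-06) without overlap. Its neighbour and close relative Mcpt1 read 4.06, 4.496 and 4.98 in naive mice and 3.74, 5.55 and 6.26 in OVA mice and gave 0.71 ± 0.33 (adjusted p = 0.0834), and the 2 may share probe signal. Cpa3, Kit and Fcer1a, which mark mast cells at large, gave 0.13, -0.17 and -0.31 (adjusted p = 0.645, 0.306 and 0.267). The 2 that fell were Enpp3, a basophil activation marker, and Mcpt4, a mast cell chymase (-0.47 ± 0.17 and -0.51 ± 0.21, adjusted p = 0.0226 and 0.0482). Leaving out 1 array ended the Enpp3 call in 3 of 14 fits (naive replicate 5, OVA replicate 3 or 5, adjusted p 0.064 to 0.133, with a fall of 0.31 without OVA replicate 3) and the Mcpt4 call in 9. Mcpt4 was also not called without the arrays with gullet keratins or against naive saline mice (adjusted p = 0.17 and 0.534).

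Genes of dendritic cells moved both ways. Itgax (CD11c), found on dendritic cells and alveolar macrophages, read 10.82, 10.96 and 11.14 in naive mice and 11.18, 12.08 and 12.30 in OVA mice and rose by 0.94 ± 0.16 (1.91-fold, adjusted p = 1.87e-06) without overlap. Batf3, a factor of conventional dendritic cells, read 8.29, 9.01 and 9.36 in naive mice and 9.09, 10.03 and 10.54 in OVA mice and rose by 0.90 ± 0.21 (adjusted p = 0.000439), with OVA replicates 7 and 3 inside the naive range. Ccr7, which guides dendritic cells and T cells to lymph nodes, read 9.10, 9.60 and 9.79 in naive mice and 8.71, 9.04 and 9.38 in OVA mice and fell by 0.47 ± 0.14 (adjusted p = 0.0069). Xcr1 and Flt3 gave -0.23 and 0.13 (adjusted p = 0.0915 and 0.371). In all, 2 of 11 markers rose and 1 fell, shares near those over all genes. Ccl17, a chemokine for T helper 2 cells, read 10.21, 10.93 and 11.68 in naive mice and 10.52, 11.90 and 12.87 in OVA mice and rose by 0.89 ± 0.33 (adjusted p = 0.0282). That call was lost without the 3 arrays with gullet keratins (adjusted p = 0.0836) and in 5 of 14 fits that left out 1 array (adjusted p 0.0589 to 0.0963), and the difference was 1.53 against naive saline mice.

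Of 14 T cell markers 4 rose and none fell, each of the 4 a gene of activated or regulatory cells, with a list median of 0.13. Without the arrays with gullet keratins 2 rose and 1 fell, and the median was -0.080. Against naive saline mice 2 also rose and 1 fell, with a median of -0.093. Icos, a costimulatory receptor, read 8.83, 9.43 and 9.91 in naive mice and 9.63, 10.12 and 10.84 in OVA mice and rose by 0.83 ± 0.22 (1.78-fold, adjusted p = 0.00148; 0.55 against naive saline mice). OVA replicate 3 was the one OVA array inside the naive range. Ctla4, an inhibitory receptor of activated and regulatory T cells, read 6.48, 6.58 and 6.65 in naive mice and 6.75, 6.99 and 7.33 in OVA mice and rose by 0.44 ± 0.14 (adjusted p = 0.0102), a small shift but one without overlap. Il2ra and Foxp3 made up the count, with 0.52 ± 0.19 and 0.34 ± 0.14 (adjusted p = 0.0226 and 0.0454), and neither was called without the arrays with gullet keratins or against naive saline mice. Leaving out 1 array ended the Il2ra call in 3 of 14 fits (naive replicates 4 and 7 and OVA replicate 8, adjusted p 0.052 to 0.0937) and the Foxp3 call in 7. Cd3e, Cd4 and Cd8a, which count T cells more generally, gave 0.096, 0.30 and 0.03 (adjusted p = 0.539, 0.12 and 0.933). The remaining members of the list lay on both sides of 0 and did not pass.

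Of 12 plasma cell and antibody genes 6 rose and 1 fell, with a median of 0.38. Ighm, the constant region of IgM, read 9.27, 10.32 and 10.70 in naive mice and 13.51, 13.80 and 14.14 in OVA mice. Every OVA mouse was more than 2 log2 units above every naive mouse, and the rise was 3.68 ± 0.36 (12.8-fold, adjusted p = 2.11e-15). Of its 5 probe sets 4 rose, with differences from 0.01 to 4.72, and some could detect other heavy chains. Jchain, which joins IgM and IgA units, read 10.12, 10.61 and 11.32 in naive mice and 11.15, 12.31 and 12.63 in OVA mice and rose by 1.51 ± 0.29 (2.85-fold, adjusted p = 1.79e-05). Derl3 and Mzb1, proteins of the plasma cell's secretory apparatus, rose by 1.16 ± 0.28 and 1.09 ± 0.33 (adjusted p = 0.000561 and 0.0061). Igha, the constant region of IgA, read 12.74, 13.32 and 13.73 in naive mice and 12.18, 13.14 and 13.56 in OVA mice and gave -0.22 ± 0.18 (adjusted p = 0.371). Sdc1, which marks plasma cells and also epithelium, fell by 0.31 ± 0.07 (adjusted p = 0.00032), a call lost against naive saline mice (-0.15, adjusted p = 0.0674). Xbp1, the factor of secretory cells, and the kinase Pim2 rose by 0.38 ± 0.077 and 0.38 ± 0.14, the first not called against naive saline mice (0.16) and the second not called without the arrays with gullet keratins (adjusted p = 0.0958) or without naive replicate 6 or 7 or OVA replicate 8 alone, where its smallest rise was 0.22. None of 9 B cell markers passed, with Ms4a1 (CD20) at 0.20 ± 0.22 and Cd79b at -0.16 ± 0.17, and OVA replicate 7 held the highest mean of lymphoid tissue genes, 9.55 against 8.18 to 8.90 in the other 13 arrays.

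Cell division genes rose almost as a whole, 12 of 14 with none lower and a median of 0.76. Cdk1, the kinase that starts mitosis, read 8.31, 8.69 and 9.84 in naive mice and 9.60, 10.17 and 10.24 in OVA mice and rose by 1.22 ± 0.23 (2.33-fold, adjusted p = 1.71e-05). Naive replicate 2 was the one naive array inside the OVA range. Mcm5 and Mcm6, subunits of the helicase that opens DNA for replication, read 9.67, 9.90 and 10.25 and 10.36, 10.52 and 10.71 in naive mice and 10.46, 10.77 and 11.09 and 11.11, 11.22 and 11.49 in OVA mice. Neither overlapped, and they rose by 0.89 ± 0.17 and 0.71 ± 0.14 (adjusted p = 1.72e-05 and 2.53e-05). Mcm2 rose by 0.71 ± 0.14 and Ccna2, the S phase cyclin, by 0.87 ± 0.19. OVA replicate 3, low for mucus genes, was the highest array of Mcm5 and Mcm6. Against naive saline mice the rises were smaller but called, at 0.43 for Mcm5, 0.38 for Mcm6 and 0.43 for Mcm2. Cdc20 and Tk1 did not pass (0.49 ± 0.20 and 0.34 ± 0.15). Of genes singled out after their values were seen, Hmmr, a spindle and hyaluronan-binding protein, read 7.72, 8.46 and 9.57 in naive mice and 9.83, 10.04 and 10.61 in OVA mice and rose by 1.65 ± 0.29 (adjusted p = 5.23e-06), Sapcd2, a mitotic orientation protein, read 8.54, 8.97 and 9.50 in naive mice and 10.16, 11.01 and 11.63 in OVA mice and rose by 1.90 ± 0.26 (adjusted p = 8.52e-09), and Fst, the activin inhibitor follistatin, read 6.79, 7.10 and 7.44 in naive mice and 8.36, 8.95 and 9.81 in OVA mice and rose by 1.89 ± 0.28 (adjusted p = 1.05e-07). All 3 separated the groups. Ccna1, the germ-line cyclin among the 20 leading rises, read 6.93, 7.30 and 7.82 in naive mice and 7.61, 9.65 and 10.86 in OVA mice and rose by 2.25 ± 0.28 (adjusted p = 5.93e-10).

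**Figure D3:**
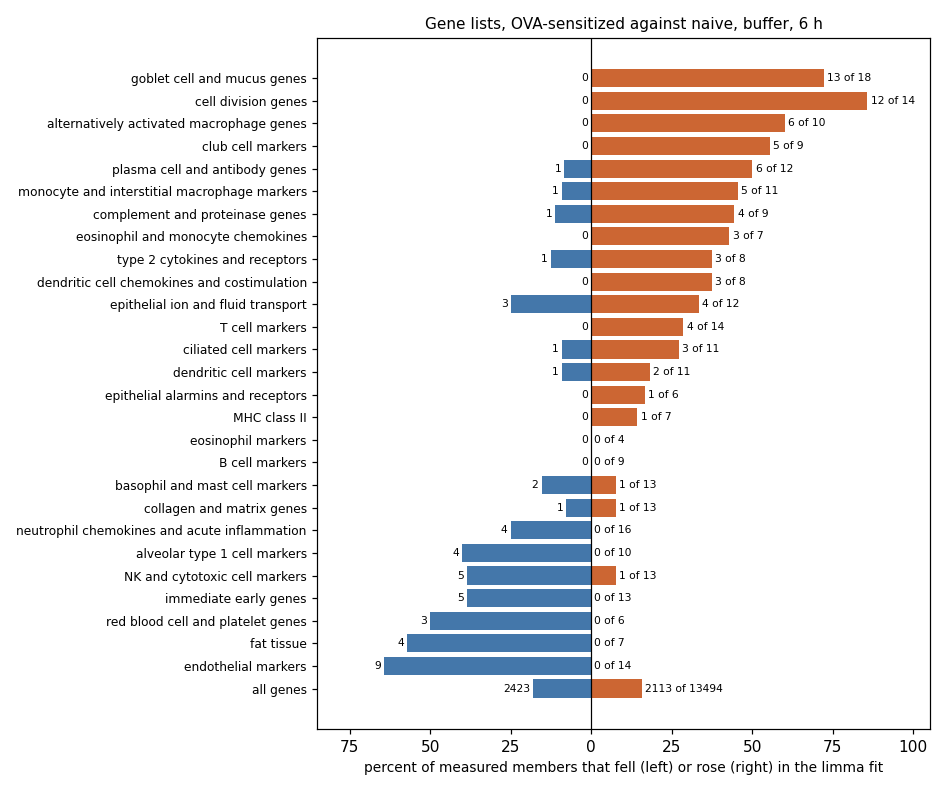
Percent of the measured members of each gene list that were called higher (right) or lower (left) in OVA than in naive lungs in buffer at 6 h, with the same over all 13494 genes in the bottom bar as the reference. Bars carry no error, since they count calls; cell division and goblet cell genes are mostly called higher, and endothelial genes are the list most often called lower.

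The Cd209 family, C-type lectins of dendritic cells and macrophages that bind sugars of microbes, held both a leading rise and leading falls. Cd209e read 4.55, 4.72 and 5.62 in naive mice and 6.37, 7.70 and 8.84 in OVA mice and rose by 2.77 ± 0.38 (6.8-fold, adjusted p = 9.94e-09) without overlap. Cd209f read 6.57, 6.99 and 7.25 in naive mice and 4.98, 5.69 and 6.12 in OVA mice and fell by 1.38 ± 0.24 (adjusted p = 2.13e-06), and Cd209g read 7.50, 7.77 and 8.13 in naive mice and 6.14, 6.54 and 6.97 in OVA mice and fell by 1.26 ± 0.22 (adjusted p = 5.09e-06). In both falls every OVA array lay below every naive array. Chosen after their values were seen, the remaining members gave 0.21 for Cd209a, -0.45 for Cd209b, 0.29 for Cd209c and 0.66 ± 0.19 for Cd209d, of which only the last passed (adjusted p = 0.00402). Thus 2 measured members rose, 2 fell and 3 did not pass. These genes are similar in sequence, so probes may share signal. The promoters of Cd209e and Cd209f, which lie on chromosome 8 and moved in opposite directions, are shown as above, 250 bases before the start on the minus strand.
Cd209e: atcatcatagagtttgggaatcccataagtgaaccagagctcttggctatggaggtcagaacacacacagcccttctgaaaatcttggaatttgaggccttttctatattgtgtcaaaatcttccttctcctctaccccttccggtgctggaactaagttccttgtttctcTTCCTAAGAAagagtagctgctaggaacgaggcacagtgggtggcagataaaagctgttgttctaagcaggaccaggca
Cd209f: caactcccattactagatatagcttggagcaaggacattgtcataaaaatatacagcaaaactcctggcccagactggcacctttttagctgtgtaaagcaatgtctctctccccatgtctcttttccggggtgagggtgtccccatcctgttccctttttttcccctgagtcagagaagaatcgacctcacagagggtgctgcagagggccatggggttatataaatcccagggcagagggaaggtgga
They span chr8:3854287-3854536 and chr8:4105765-4106014 of GRCm38.p6. The Cd209e match to TTCNNNNGAA begins 79 bases before the start, and no match to either motif is in the Cd209f window.

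The 15 largest falls were Adipoq, Car3, Myl3, Tcap, Scara5, Apobec2, Orm1, Pon1, Cd209f, Gria1, Dcn, Cd209g, Csrp3, Clec4e and H2ac19. The last fell by 1.15, and the gene next outside, Col17a1, by 1.08. In 6 the groups did not overlap, and 10 were called without the arrays with gullet keratins. One of those arrays, OVA replicate 7, was the highest OVA array in 10 of the 15. Dcn (decorin), a matrix proteoglycan made by fibroblasts, read 11.36, 11.57 and 12.29 in naive mice and 9.81, 10.29 and 11.35 in OVA mice and fell by 1.28 ± 0.21 (2.43-fold, adjusted p = 1.07e-06). OVA replicate 7 just touched the lowest naive array without passing it. Pon1 (paraoxonase), an esterase carried on high-density lipoprotein, read 11.68, 11.98 and 12.16 in naive mice and 9.73, 10.50 and 11.27 in OVA mice and fell by 1.44 ± 0.31 (2.72-fold, adjusted p = 0.000135), with no overlap. Gria1, a glutamate receptor subunit, read 9.29, 9.68 and 9.96 in naive mice and 7.16, 8.56 and 8.66 in OVA mice and fell by 1.31 ± 0.24 (adjusted p = 6.77e-06), with OVA replicate 3 the lowest. Scara5, a scavenger receptor that takes up ferritin, read 9.29, 9.57 and 10.29 in naive mice and 7.21, 8.15 and 9.92 in OVA mice and fell by 1.48 ± 0.33 (adjusted p = 0.000201), with OVA replicate 7 inside the naive range.

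**Figure D4:**
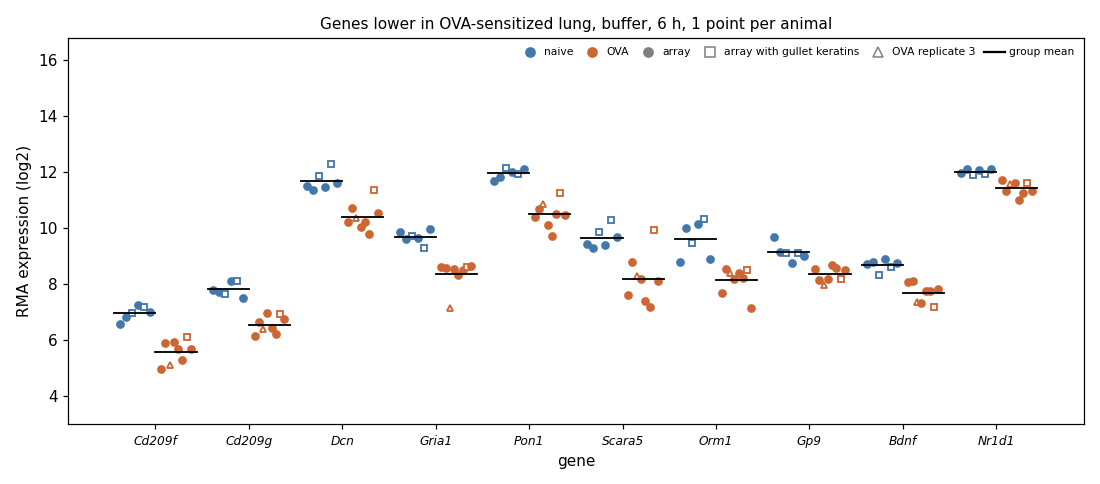
Log2 levels of 10 genes that fell, in each naive (blue) and OVA (orange) array in buffer at 6 h, with group means as black lines, open squares for arrays with gullet keratins and open triangles for OVA replicate 3. The groups overlap only in Scara5, and in Dcn they nearly touch.

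Muscle and fat genes made up several of the largest falls. The muscle genes were highest in the 3 arrays with gullet keratins. Of 7 measured fat genes 4 were called lower, with a median of -0.96, where 18.0% of all genes were called lower. Without those arrays 0 of the 7 were called, and the median was -0.89. Naive replicate 4, one of the 3, was the lowest naive array for Adipoq (7.69). Adipoq (adiponectin) and Car3, both abundant in fat, read 7.69, 9.20 and 11.98 and 10.86, 12.08 and 13.38 in naive mice and 5.60, 7.16 and 10.42 and 8.39, 9.87 and 12.998 in OVA mice. Their falls of 1.94 ± 0.77 and 1.83 ± 0.73 (adjusted p = 0.0417 and 0.0413) were -2.10 and -1.84 without the arrays with gullet keratins, and no longer called (adjusted p = 0.0574 and 0.081). Leaving out 1 array ended the Adipoq call in 9 of 14 fits and the Car3 call in 10 (adjusted p up to 0.183 and 0.112). The muscle genes Myl3, Csrp3 and Apobec2 were also lost without those arrays (adjusted p = 0.0558, 0.119 and 0.0804). For Myl3, leaving out naive replicate 6 or 4 or OVA replicate 8 also did so. Tcap, which caps titin in striated muscle, read 10.55, 11.16 and 12.61 in naive mice and 8.22, 9.67 and 12.04 in OVA mice and kept its call there (-1.36, adjusted p = 0.0354). For Apobec2 the fall was 0.91 without naive replicate 4, and the call was also lost without naive replicate 6 or OVA replicate 3 or 4 (adjusted p 0.0608 to 0.194). None of these 6 was called against naive saline mice. Naive replicate 6 and OVA replicate 7 were among the 3 highest arrays for Adipoq and Car3, and naive replicates 4 and 6 and OVA replicate 7 were the 3 highest for Myl3, Csrp3, Apobec2 and Tcap.

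Of 16 genes of neutrophil recruitment and acute inflammation 4 fell and none rose, with a median of -0.43. Over all genes 18.0% fell and 15.7% rose. Orm1, an acute phase glycoprotein, read 8.79, 9.74 and 10.32 in naive mice and 7.14, 8.31 and 8.55 in OVA mice and fell by 1.47 ± 0.47 (2.76-fold, adjusted p = 0.0111) without overlap. Orm3, a near-copy chosen after its values were seen, fell by 0.80 ± 0.17 (adjusted p = 8.46e-05; -0.48 against naive saline mice). Il1a, an alarm cytokine, read 7.72, 7.89 and 8.38 in naive mice and 5.65, 7.65 and 7.85 in OVA mice and fell by 0.60 ± 0.17 (adjusted p = 0.00398). OVA replicate 3 was more than 1 log2 unit below all others, and without it the difference was -0.35 (adjusted p = 0.0641). Il1b and Tnf fell by 0.62 ± 0.23 and 0.59 ± 0.22 (adjusted p = 0.0282 and 0.0288), calls that 5 and 4 of the 14 fits without 1 array did not make. The 4 for Tnf left out naive replicate 4, 3 or 5 or OVA replicate 8 (adjusted p 0.053 to 0.12), and neither gene was called without the arrays with gullet keratins (adjusted p = 0.0651 and 0.0685). Cxcl1 and Cxcl2, neutrophil chemokines, gave -0.80 ± 0.42 and -0.996 ± 0.58 (adjusted p = 0.137 and 0.178). Clec4e (Mincle), a receptor for mycobacterial lipid, read 8.30, 8.97 and 9.84 in naive mice and 7.44, 7.69 and 8.44 in OVA mice and fell by 1.17 ± 0.39 (adjusted p = 0.0139). These falls changed with the naive group used. Against naive saline mice the list's median was 0.26, with 3 genes higher and 2 lower, and Orm1, Il1a, Il1b, Tnf and Clec4e were not called (0.084, -0.36, -0.38, 0.038 and -0.32).

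Of 13 natural killer and cytotoxic cell genes 5 fell and 1 rose. Gzma, a granzyme of natural killer cells, read 11.43, 11.86 and 12.17 in naive mice and 10.55, 11.16 and 11.71 in OVA mice and fell by 0.70 ± 0.15 (1.63-fold, adjusted p = 0.000104). Klrk1, the activating receptor NKG2D, read 6.13, 6.52 and 7.05 in naive mice and 5.48, 5.83 and 6.29 in OVA mice and fell by 0.70 ± 0.15 (adjusted p = 0.000189), and Ncr1, the receptor NKp46 that marks these cells, read 6.74, 7.11 and 7.70 in naive mice and 5.69, 6.46 and 6.85 in OVA mice and fell by 0.78 ± 0.19 (adjusted p = 0.000705). In all 3 the ranges overlapped at the ends, with naive replicate 4 or 7 among the higher OVA arrays. Gzmb fell by 0.59 ± 0.17 (adjusted p = 0.00439), while Ifng, their main cytokine, gave 0.27 ± 0.20 (adjusted p = 0.301). Ifit2, an interferon-induced gene, read 9.92, 10.12 and 10.42 in naive mice and 8.999, 9.53 and 9.66 in OVA mice and fell by 0.67 ± 0.13 (adjusted p = 2.29e-05) without overlap. Of 13 interferon genes it was the one that fell (18.0% of all genes fell), and 1 rose, Mx1, an antiviral GTPase, by 0.53 ± 0.20 (adjusted p = 0.0302). The Mx1 call was lost without the arrays with gullet keratins (adjusted p = 0.169), against naive saline mice, and in 5 of 14 fits that left out 1 array (adjusted p up to 0.101). Prf1 (perforin) and Klrg1, the remaining called members of the cytotoxic list, gave -0.28 ± 0.087 and 0.48 ± 0.18 and were not called without the arrays with gullet keratins (adjusted p = 0.0729 and 0.423) or against naive saline mice (-0.058 and 0.22). Leaving out 1 array ended the Prf1 call once (naive replicate 6, adjusted p 0.0523), as did quantile normalization, and the Klrg1 call in 4 fits (naive replicates 6 and 4, OVA replicates 1 and 4, up to 0.13).

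Endothelial genes fell by small amounts, 9 of 14 lower and none higher, with a median of -0.27. Tek, the angiopoietin receptor, read 12.70, 12.92 and 13.06 in naive mice and 12.36, 12.58 and 12.69 in OVA mice and fell by 0.34 ± 0.068 (adjusted p = 3.94e-05), and the ranges did not quite meet. Kdr and Flt1, receptors for vascular endothelial growth factor, fell by 0.47 ± 0.11 and 0.48 ± 0.13 (adjusted p = 0.000672 and 0.00232). Egfl7 and Eng fell by 0.24 ± 0.059 and 0.43 ± 0.12, and neither was called against naive saline mice (0.0038 and -0.26). The count was 7 of 14 without the arrays with gullet keratins, 10 without OVA replicate 3, and 4 with the beta-actin difference as a covariate or with naive saline mice as the reference. Markers of type 1 alveolar cells ran the same way in 4 of 10 genes, led by Clic5, an anion channel-related protein, which read 13.26, 13.30 and 13.48 in naive mice and 12.77, 12.995 and 13.18 in OVA mice and fell by 0.34 ± 0.061 (adjusted p = 8.33e-06; -0.20 against naive saline mice), and Emp2 (-0.18 ± 0.044). Aqp5, above, was among the 4. Ager and Pdpn, which define type 1 cells, gave -0.051 and -0.025 (adjusted p = 0.226 and 0.536).

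Among markers of other epithelial cells most changes were small. The counts below stand beside 15.7% of all genes higher and 18.0% lower. Of 9 genes of type 2 alveolar cells 2 rose, the surfactant genes Sftpc (0.073 ± 0.022) and Sftpd (0.096 ± 0.034), and 1 fell, with Napsa, a protease of surfactant processing, lower by 0.22 (adjusted p = 0.000974). Sftpb gave -0.071 (adjusted p = 0.213). Sftpc was not called against naive saline mice (0.017) or after quantile normalization (0.05), nor Sftpd without the arrays with gullet keratins (0.084) or in 3 fits that left out naive replicate 6 or OVA replicate 6 or 2 (adjusted p up to 0.0787). Among club cell genes 5 of 9 rose. The largest rise was that of Scgb3a1, a secretoglobin of airway secretory cells, which read 12.19, 13.22 and 13.46 in naive mice and 13.20, 13.96 and 14.09 in OVA mice and rose by 0.77 ± 0.27 (adjusted p = 0.0192). Its ranges overlapped, and it was not called without the arrays with gullet keratins (0.41, adjusted p = 0.321) or without naive replicate 6 or 4 alone (adjusted p up to 0.0813). The smallest p was that of Aldh1a7, an aldehyde dehydrogenase, which rose by 0.43 ± 0.072 (adjusted p = 1.38e-06), while the club cell enzyme Cyp2f2 gave -0.016 (adjusted p = 0.823). Scgb1a1, the main secretion of club cells, read 14.21, 14.25 and 14.30 in naive mice and 14.31, 14.37 and 14.42 in OVA mice, and its rise of 0.13 ± 0.029 was not called against naive saline mice (0.032). Of 11 ciliated cell genes 3 rose and 1 fell. Ccdc39, a ciliary assembly protein, rose by 0.54 ± 0.095 (adjusted p = 4.79e-06), Tppp3 fell by 0.47 ± 0.097 (adjusted p = 6.44e-05), and Foxj1, the master factor of these cells, gave -0.0065 (adjusted p = 0.983). Tppp3 was not called against naive saline mice (-0.19).

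Of 6 red cell and platelet genes 3 fell: Gp9, a subunit of the platelet von Willebrand factor receptor, read 8.76, 9.12 and 9.67 in naive mice and 7.96, 8.35 and 8.67 in OVA mice and fell by 0.79 ± 0.16 (1.73-fold, adjusted p = 5.4e-05) without overlap, beside Ppbp (-0.68 ± 0.20) and Pf4 (-0.34 ± 0.10). None of the 3 was called against naive saline mice (-0.072, -0.45 and -0.10), and of the 3 only Gp9 was called without the arrays with gullet keratins. In that last fit 3 of the 6 list members were still called lower, with others in place of Ppbp and Pf4. Immediate early genes fell in 5 of 13 cases, against 18.0% of all genes. The largest falls were those of Nr4a1, an orphan nuclear receptor, and Egr1, a zinc finger factor, by 0.66 ± 0.22 and 0.49 ± 0.17 (adjusted p = 0.0171 and 0.0158). Neither was called without the arrays with gullet keratins (adjusted p = 0.0868 and 0.0814) or without naive replicate 4 alone, nor Nr4a1 against naive saline mice. The smallest p-values were those of Jun (-0.31 ± 0.065, adjusted p = 9.03e-05) and Ier3 (-0.47 ± 0.11, adjusted p = 0.000333), neither called against naive saline mice (-0.15 and -0.14). Gadd45b, a stress-induced growth arrest gene chosen after its values were seen, read 10.80, 11.35 and 11.86 in naive mice and 10.14, 10.32 and 10.83 in OVA mice and fell by 0.94 ± 0.17 (adjusted p = 7.95e-06), and it too was not called against them (-0.067). Of 15 clock genes 2 rose and 2 fell, shares near those over all genes (15.7% and 18.0%). Nr1d1 (Rev-erb alpha), a repressor of the clock, read 11.89, 12.03 and 12.12 in naive mice and 11.02, 11.46 and 11.73 in OVA mice and fell by 0.59 ± 0.18 (adjusted p = 0.00706) without overlap. Bdnf and Sema6d, a growth factor and a semaphorin chosen after their values were seen, read 8.35, 8.74 and 8.89 and 6.77, 7.02 and 7.53 in naive mice and 7.197, 7.75 and 8.11 and 5.67, 6.11 and 6.58 in OVA mice. They fell by 1.01 ± 0.15 and 1.02 ± 0.21 (adjusted p = 5.39e-08 and 8.31e-05), and both ranges were separate.

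The same contrast was taken in mice that share no array with this one. OVA and naive mice differed in 3176 genes (23.5%) in saline at 6 h and in 1156 (8.57%) in buffer at 24 h. All 20 leading rises were called higher in saline, and 19 at 24 h, the exception being Reg3g (0.86, adjusted p = 0.514). Clca1 differed by 8.31 in saline and 8.57 at 24 h, beside 8.49 in buffer at 6 h. Chil4 differed by 6.76 and 4.97, beside 6.33, and Ighm by 3.67 and 4.78, beside 3.68. Of the 15 leading falls 6 were called lower in saline (Scara5, Pon1, Cd209f, Cd209g, Gria1 and Dcn) and 2 at 24 h (Pon1 and Gria1). Of the lists, goblet cell genes rose in 15 and 14 of 18 and cell division genes in 14 and 11 of 14 in those pairs. Genes of acute inflammation had 5 higher and 2 lower in saline and 3 higher at 24 h. Of the 4 measured eosinophil markers, none called in buffer at 6 h, 1 was higher in saline and 3 at 24 h. None of the 4 was called when these effects were compared with that in buffer at 6 h. The 24 h pair includes naive replicate 8, which carried gullet keratins. Without arrays of that kind 1085 genes (8.04%) were called at 24 h, 990 of them among the 1156. The leading rises called were then 18, with Tff2 also lost (1.12, adjusted p = 0.0837), and Pon1 and Gria1 stayed lower. Clca1 differed by 8.43, Chil4 by 5.53 and Ighm by 4.74, and goblet cell genes rose in 12 of 18 and cell division genes in 9 of 14. Eosinophil markers were still higher in 3 of 4.

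Whether an effect of sensitization depended on the challenge was tested as a difference of differences. In buffer minus saline at 6 h, 353 genes (2.62%) passed, and none of the 20 leading rises was among them. The count fell to 133 without naive replicate 2 and 171 without naive replicate 5, and to 1 when only the 4 groups were fitted. Naive replicates 2 and 5 had the highest array medians of the main comparison, at 9.128 and 9.164. Naive replicate 3 was next at 9.064. After quantile normalization 452 genes were called, 324 of them among the 353. Gjb5, a gap junction protein of skin and airway epithelium, fell in buffer (-0.59, from 7.83, 8.05 and 8.34 to 6.89, 7.46 and 8.03) and was higher in OVA mice in saline (0.71), a difference of -1.30 ± 0.29 (adjusted p = 0.00528). Slpi, an antiproteinase of airway secretions, differed by 0.24 in buffer and 1.24 in saline, a difference of -0.99 (adjusted p = 0.0247). H2ac19, a replication-dependent histone, Vnn1, a pantetheinase, and Ptgs2, the inducible cyclooxygenase, completed the 5 lowest (-1.09, -0.96 and -0.89). Without the arrays with gullet keratins, H2ac19 (adjusted p = 0.302) and Ptgs2 (0.0596) were not called. In the other direction the 5 highest were Hoxa4 (0.96, adjusted p = 0.000488), Sbk1 (0.92), Pde2a (0.78), Angpt4 (0.76) and Ajap1 (0.71). The last 3 were not called without those arrays (adjusted p = 0.0624, 0.129 and 0.117). Gjb5 and Hoxa4 passed in all 14 fits that left out 1 array. Hoxa4 was not called when only the 4 groups were fitted, where the 1 gene called had a negative difference. Its naive levels were 6.96 and 7.44 in replicates 5 and 2 and at least 8.28 in the others. Each fit that left out 1 array kept 1 or both of these low arrays, so it cannot show the difference without them. The call was lost for Slpi without naive replicate 6 (adjusted p = 0.0663), for Ptgs2 without naive replicate 2 (0.0603), for Sbk1 in 3 fits (naive replicates 2 and 5 and OVA replicate 8, up to 0.0675), and for Vnn1, H2ac19, Pde2a, Angpt4 and Ajap1 in 6 to 9 fits (up to 0.137). In the main comparison, the Gjb5 fall was not called without OVA replicate 3 (adjusted p = 0.0569) or against naive saline mice (0.014).

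Between 6 and 24 h in buffer, 391 genes (2.9%) differed in the effect of sensitization, 207 without naive replicate 5 and 213 without naive replicate 2. These were the naive arrays with the highest medians, as above. After quantile normalization 433 genes were called, 334 of them among the 391. With the beta-actin difference as a covariate 127 were called, 114 of them among the 391. That measure had means of 2.57 (OVA) and 2.14 (naive) at 6 h and 1.28 and 1.25 at 24 h, without overlap. RNA quality and time cannot be fully told apart here. Cd209f and Cd209g, lower in OVA mice at 6 h, gave values near 0 at 24 h (0.083 and 0.022), and the differences of -1.46 and -1.28 passed (adjusted p = 0.00474 and 0.0112). Dcn followed them, with -0.12 at 24 h and a difference of -1.16 (adjusted p = 0.0148). The chemokines Ccl12 and Cxcl10 were called higher in OVA mice at 24 h and not at 6 h. Ccl12, a ligand of the monocyte receptor Ccr2, had -0.22 at 6 h and 1.34 at 24 h (adjusted p of the difference 0.0166). Cxcl10, which attracts activated T cells, had -0.13 and 1.53 (adjusted p 0.0445, and 0.0793 without the arrays with gullet keratins). Cd209b was the fifth (-1.20, and an adjusted p of 0.0695 without them). Tmprss2, an epithelial serine protease, was higher in OVA mice at 6 h, at 12.11, 12.40 and 12.66 against 10.49, 11.67 and 12.01, and not at 24 h (0.92 and 0.10, adjusted p of the difference 0.000737). Naive replicate 5 was its lowest array, by 10.49 against 11.19 in the next. Kdm6a (1.05), Hoxa4 (0.92), Ap5z1 (0.89) and Plch2 (0.81) were the other 4 of the 5 highest. Kdm6a and Plch2 were not called without the arrays with gullet keratins (adjusted p = 0.127 and 0.0866), and further probe sets of Hoxa4 and Kdm6a pointed the other way. Cd209f, Cd209g, Tmprss2, Hoxa4 and Ap5z1 passed in all 14 fits that left out 1 array. Tmprss2 and Hoxa4 were lowest in naive replicates 5 and 2, and each of those fits kept 1 or both of these arrays. The call was lost for Ccl12 without naive replicate 5 (adjusted p = 0.0569), for Cd209b without OVA replicate 6 (0.0512), for Kdm6a without naive replicate 4 (0.0572, with the difference at 0.69), for Plch2 without naive replicate 6 or OVA replicate 6 or 7 (up to 0.064), and for Cxcl10 in 8 fits (up to 0.0815).

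**Figure D5:**
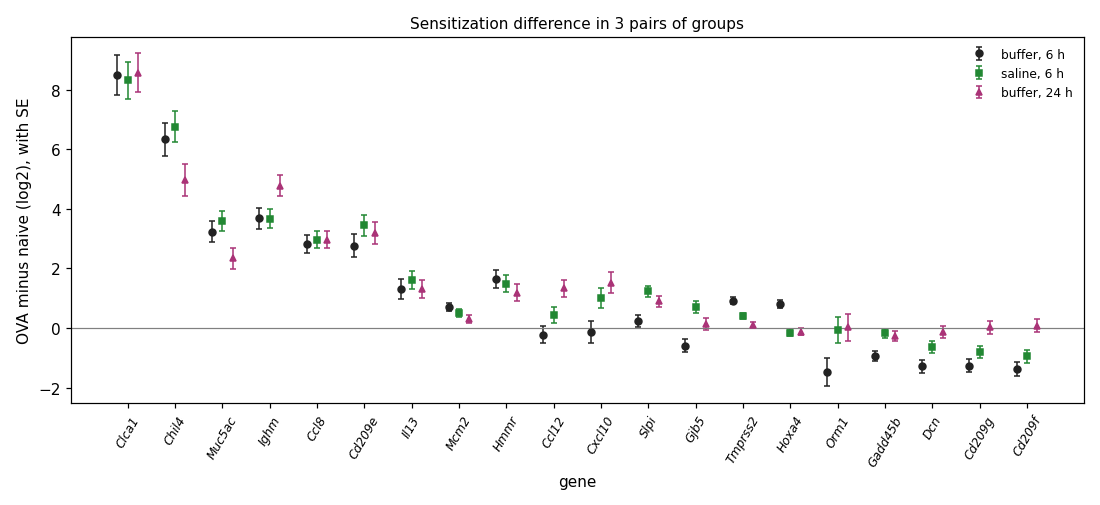
OVA minus naive log2 difference with its SE from limma for 20 genes, in buffer at 6 h, saline at 6 h and buffer at 24 h, each from its own arrays. Clca1, Chil4 and Ighm are far above 0 in all 3 pairs, whereas Cd209f, Cd209g and Dcn are below 0 at 6 h and near 0 in buffer at 24 h.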

How the data were processed

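Total RNA of whole lungs, with integrity numbers above 6 per the labels' protocols, was hybridised to Affymetrix arrays, 1 per mouse. The deposited table holds log2 values of 26166 probe sets that the authors made with RMA, per the submitters' processing notes; the sources used here do not state its version, normalization set or annotation. Values ran from 2.96 to 15.11, array medians from 8.97 to 9.16, and no 2 arrays were identical. Of the probe sets 22892 name 1 gene in the platform annotation, 260 several and 3014 none. Each of 13494 genes was taken from its probe set with the highest mean. limma 3.58.1 (R 4.3.3) fitted 1 mean for each of 20 labelled groups over 149 arrays, with Benjamini-Hochberg adjustment over all genes at 0.05; it was tested on simulated data. Permutation tests enumerated all assignments in Python 3.11.15. Of 486 listed genes 403 were measured. Motif windows came from RefSeq (GRCm38.p6).

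The genes and lists were chosen with earlier results of these data known. The rule for named genes took the 20 largest rises and 15 largest falls past the threshold, skipping predicted genes; up to 4 members of each list with the smallest p; every member of the type 2, alarmin and eosinophil chemokine lists; Krt4 and Krt13; and 5 genes in each direction for each difference. List members outside it were named after their values were seen: Ager, C1qa, Car4, Ccna2, Ccr2, Cd209a, Cd3e, Cd4, Cd8a, Cdc20, Cftr, Cpa3, Creb3l1, Csf1r, Cxcl1, Cxcl2, Cyp2f2, Derl3, Ern2, Fcer1a, Flt1, Flt3, Foxa3, Foxj1, Fxyd3, Galnt6, Ifng, Igha, Kit, Klrg1, Marco, Mcpt1, Mmp9, Mrc1, Ms4a1, Muc20, Muc4, Muc5b, Mzb1, Nr4a1, Pdpn, Pim2, Pparg, Prf1, Scnn1a, Scnn1b, Sftpb, Slc6a20a, Spdef, St6galnac1, Tk1 and Xcr1.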

Additional observations from a re-analysis of the deposited data

Results flagged for a closer look

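Among 414 groups of arrays checked for the 206 named genes, 33 held 1 array far from the others of its group. Chance marks about 1 in 20 groups. OVA replicate 3 was that array in 15 of them. It was the lowest OVA array for Clca1 (11.56, next 13.72), Chil4 (8.73, next 11.53), Capn9 (6.19, next 8.86), Agr2 (9.09, next 11.34), Chia1 (11.19, next 12.998), Mzb1 (8.82, next 9.98), Derl3 (8.08, next 8.82), Krt79 (7.40), Adam8 (9.81), Cd8a (8.68), Aldh1a7 (12.31), Car4 (11.96), Gria1 (7.16, next 8.35) and Il1a (5.65, next 7.38), and the highest for Ajap1 (8.602, next 7.38). It was thus low for mucus, chitinase-like and plasma cell genes in the same lung. OVA replicate 7 was the highest for Krt4 (14.05), Krt13 (13.90) and Apobec2 (11.60). OVA replicate 8 was the highest for Sbk1 (10.56) and Pim2 (10.74), replicate 6 for Ap5z1 (10.61) and the lowest for Cpa3 (6.89), and replicate 4 the highest for Epx (8.02, next 6.94). In naive mice, replicate 4 was the lowest for Kdm6a (7.33, next 9.33), Cpa3 (6.53, next 7.70), Mmp9 (8.54) and Jun (12.42), and replicate 6 for Foxj1 (8.01) and Scnn1a (11.39). Naive replicate 7 was the highest for Ajap1 (7.29) and the lowest for Ptgs2 (8.91), replicate 2 the highest for Cdk1 (9.84, next 8.83), and replicate 5 for Cd209d (7.84). What sets these arrays apart was not tested beyond the values given.

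The effect of sensitization differed by challenge or time, by limma's test of the difference itself, in the following named genes. Buffer minus saline gave 0.96 for Hoxa4, 0.92 for Sbk1, 0.78 for Pde2a, 0.76 for Angpt4, 0.71 for Ajap1, 0.68 for Ap5z1 (adjusted p = 0.0138) and 0.53 for Tmprss2 (adjusted p = 0.0373). It gave -1.30 for Gjb5, -1.09 for H2ac19, -0.99 for Slpi, -0.96 for Vnn1 and -0.89 for Ptgs2. The difference between 6 and 24 h was 1.05 for Kdm6a, 0.92 for Hoxa4, 0.89 for Ap5z1, 0.82 for Tmprss2 and 0.81 for Plch2. It was -1.66 for Cxcl10, -1.55 for Ccl12, -1.46 for Cd209f, -1.28 for Cd209g, -1.20 for Cd209b and -1.16 for Dcn. Hoxa4, Ap5z1 and Tmprss2 passed both tests, which share the arrays of the buffer groups at 6 h. Tmprss2 and Hoxa4 were lowest in naive replicates 5 and 2, at 10.49 and 11.19 for Tmprss2 and 6.96 and 7.44 for Hoxa4.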

How the results depend on the processing

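Among named genes called in the main comparison or in a difference of effects, a sign turned only with naive saline mice as the reference, where none of these was called: Orm1 (0.084), Tnf (0.038), Gjb5 (0.014), H2ac19 (0.17), Hoxa4 (-0.069) and Egfl7 (0.0038). The median of the acute inflammation list turned there too (from -0.43 to 0.26), and medians near 0 turned under further settings. The share of calls that were higher went from 46.6% to 59.0% with quantile normalization. Of 147 named genes called in the main comparison, 115 were called in all 14 fits that left out 1 array. The 4536 calls became 9133 with every probe set tested on its own, 3016 without the dimmest 40% of genes, 2338 with the compared groups alone and 3208 with the beta-actin covariate (2727 shared). In 2 alternatives chosen after seeing the data they became 2185 (groups alone, without the arrays with gullet keratins) and 2510 (6 h arrays alone, beta-actin covariate). Leaving out 1 array gave 3865 to 4722. The 353 calls of the buffer minus saline difference became 156 with the mean of all probe sets, 714 with every probe set, 34 with array weights, 1 with the compared groups alone and 102 with the beta-actin covariate, and 133 to 466 without 1 array, the lowest being without naive replicate 2 (133) and naive replicate 5 (171). The 391 calls of the 6 h minus 24 h difference became 214, 633, 709, 70 and 127 in the same order, and 207 to 553 without 1 array, the lowest being without naive replicate 5 (207) and naive replicate 2 (213). The trended robust prior, quantile normalization, the mean of probe sets and naive saline mice as the reference left the main count between 4220 and 4557, but only 2285 of the 4536 calls were shared with the 4220 against naive saline mice. Named calls were lost in 43 genes against naive saline mice, 23 with the beta-actin covariate, 19 with array weights and 31 with the compared groups alone. They were lost in 36 with the beta-actin covariate and without the arrays with gullet keratins. With the mean of probe sets they were lost for Car3, Csf1r and Xbp1. Animal numbers did not pair the samples: deviations of same-numbered mice correlated between -0.516 and 0.103, and with the number as a replicate block 4489, 329 and 403 genes were called, with Adipoq and Car3 lost. The beta-actin difference between the groups was 0.326 to 0.503 without 1 array and 0.39 without the arrays with gullet keratins. Detection calls were not used here, so how far a dim probe set lies above background is unknown.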

Other observations

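Genes outside the lists rose in OVA lungs as well. Those below were chosen after their values were seen. Mrgprg, a receptor of the Mas-related family known from sensory neurons, read 5.20, 5.53 and 6.22 in naive mice and 5.80, 7.65 and 8.97 in OVA mice and rose by 1.93 ± 0.31 (3.81-fold, adjusted p = 6.04e-07 by limma). It differed by 2.50 in saline and by 1.61 in buffer at 24 h. Bcat1, the cytosolic enzyme that starts the breakdown of branched-chain amino acids, read 5.35, 6.01 and 6.23 in naive mice and 6.43, 7.78 and 8.604 in OVA mice and rose by 1.79 ± 0.41 (3.46-fold, adjusted p = 0.000304), with no overlap. Of its 2 probe sets the second gave a difference near 0. Dcstamp, which dendritic cells and fusing macrophages express, read 5.62, 6.30 and 6.88 in naive mice and 6.59, 7.76 and 9.10 in OVA mice and rose by 1.61 ± 0.40 (3.06-fold, adjusted p = 0.000886). Only OVA replicate 7 lay inside the naive range. Oit1, a secreted protein, read 6.59, 7.48 and 8.53 in naive mice and 7.14, 9.89 and 10.27 in OVA mice and rose by 1.91 ± 0.38 (3.76-fold, adjusted p = 4.27e-05), with OVA replicates 3 and 8 inside the naive range. All 4 were also called in saline at 6 h and in buffer at 24 h.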
